A study of Mus musculus with 6 samples.

Results

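Interferon-stimulated genes and RNA sensors were followed in muscle stem cells, the cells that rebuild injured skeletal muscle, after culture with the lipid 11,12-EET. The 40 genes were taken by name from the deposited count table, which has 55494 rows, and all 40 had enough counts to be tested. They are 4 sensors of foreign nucleic acid, 4 transcription factors of the interferon response, 3 genes of the ISG15 system and the genes of effectors of antiviral defence. Primary muscle stem cells from wild-type mice were kept for 2 days either without (3 control libraries) or with (3 EET libraries) 11,12-EET, an epoxyeicosatrienoic acid made from arachidonic acid by cytochrome P450 enzymes. The sources used here do not give the dose, the control medium, the animals' age or the way the cells were isolated.

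In the interferon pathway, RIG-I (Ddx58) and MDA5 (Ifih1) detect RNA in the cytosol and lead to the production of type I interferon. Secreted interferon binds its receptor, JAK kinases are activated, and STAT2 joins IRF9 in the complex ISGF3, which binds the interferon-stimulated response element (ISRE) in the promoters of its target genes. Many targets, among them the sensors, STAT2 and IRF9 themselves, are expressed at a low level without infection, and interferon raises them. Stem cells are known for keeping some of these genes on without infection.

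Library totals ran from 30371291 to 37243882 counts. Values are CPM, counts scaled to a common library size with TMM factors, and differences are log2 fold changes of EET against control with the standard error of the fit. A gene was called where its Benjamini-Hochberg adjusted p in edgeR's quasi-likelihood test was under 0.05, and rose and fell are used of called genes. Nothing in the labels says whether a group's 3 libraries are separate animals or cultures, so the p-values speak only of spread between libraries, and that spread may be technical. The 6 libraries differed in how counts followed mRNA length: per doubling of length, log2 CPM moved by 0.116 to 0.243 in the controls and by −0.270 to −0.111 with EET, relative to the mean of all 6. Each member is therefore given in 2 ways, as counted and after the length and GC trend of each library was removed (called length-adjusted, a comparison with mRNAs of like length and GC content). What made the trend was not tested. The muscle stem cell markers summed to 3391 to 3693 CPM in the controls and 3896 to 3982 CPM with EET. Of these 9 markers 4 rose (Myf5, Myod1, Sdc4 and Des), Pax7 alone fell and 4 were not called. Length-adjusted, Des (0.52) was higher, Myod1 (−0.14) was lower and 7 were not called. Myod1 made up much of the sum, at means of 977 CPM in the controls and 1159 CPM with EET. Over all genes tested 24.6% rose and 23.3% fell, and length-adjusted 17.1% were called each way. Pax7, which marks the cells, was 109, 116 and 118 CPM in the controls and 81.9, 85.2 and 83.2 CPM with EET. With an mRNA of 5854 bases, it fell as counted (−0.45) and was not called length-adjusted (−0.05, adjusted p = 0.509). The sum of macrophage and other leukocyte markers set library EET 1 apart, at 398 CPM against 210 and 224 CPM in the other EET libraries and 318 to 347 CPM in the controls. Most of that sum was Lyz2, at 283, 145 and 128 CPM in EET 1, EET 2 and EET 3 and 206, 212 and 230 CPM in the controls. Members are therefore also given without EET 1 where that changes a call.

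As counted, 15 of the 40 genes fell and 7 rose with EET, where over all 16097 genes tested 23.3% were called lower and 24.6% higher. The median log2 fold change was −0.26 over the 40 genes and 0.0050 over all genes tested. Length-adjusted, 22 of the 40 were lower and 1 was higher, where 17.1% of 13811 genes were called lower and 17.1% higher. The adjusted median was −0.41 against −0.015 over all genes, and 35 of the 40 values were negative. In both ways 11 genes were lower (Ddx58, Ifih1, Stat2, Ifit1, Oasl2, Rsad2, Gbp3, Dtx3l, Parp14, Samd9l and Lgals3bp), and Ifitm1 alone was higher. Another 4 genes (Ifitm2, Ifitm3, Bst2 and Ifi27) rose as counted and were lower length-adjusted. In CPM, the EET libraries lay all below the controls for 18 genes and all above them for 7, where 28% and 29.6% of all genes tested did so. The RNA is from whole cultures, where fewer cells of a type and less RNA per cell cannot be told apart.

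**Figure D1:**
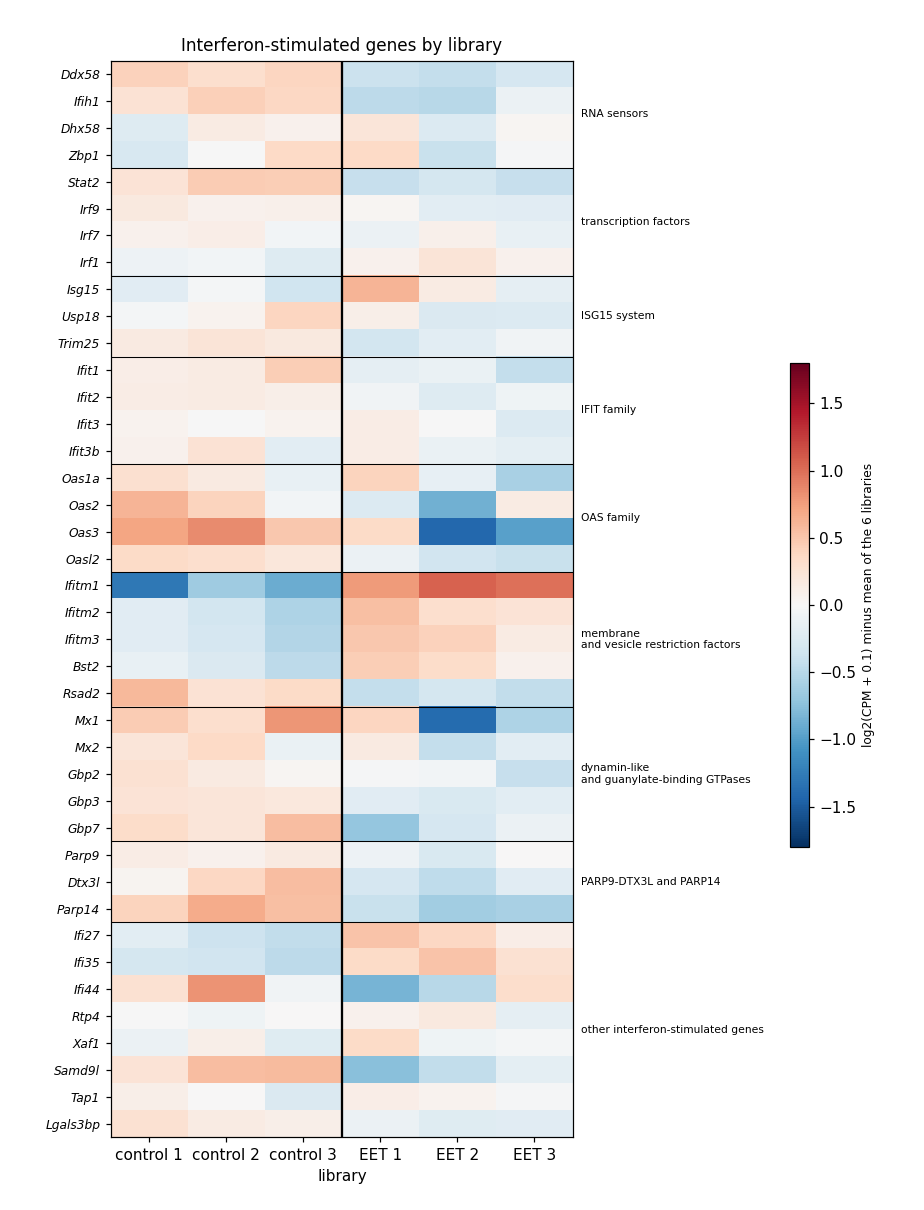
Heat map of the 40 genes in the 6 libraries, where colour gives each library's log2(CPM + 0.1) minus the gene's mean over the 6 libraries. Genes are grouped by role; Ifitm2, Ifitm3, Bst2 and Ifi27 are high and Ddx58, Stat2 and Parp14 low in all 3 EET libraries.

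**Figure D2:**
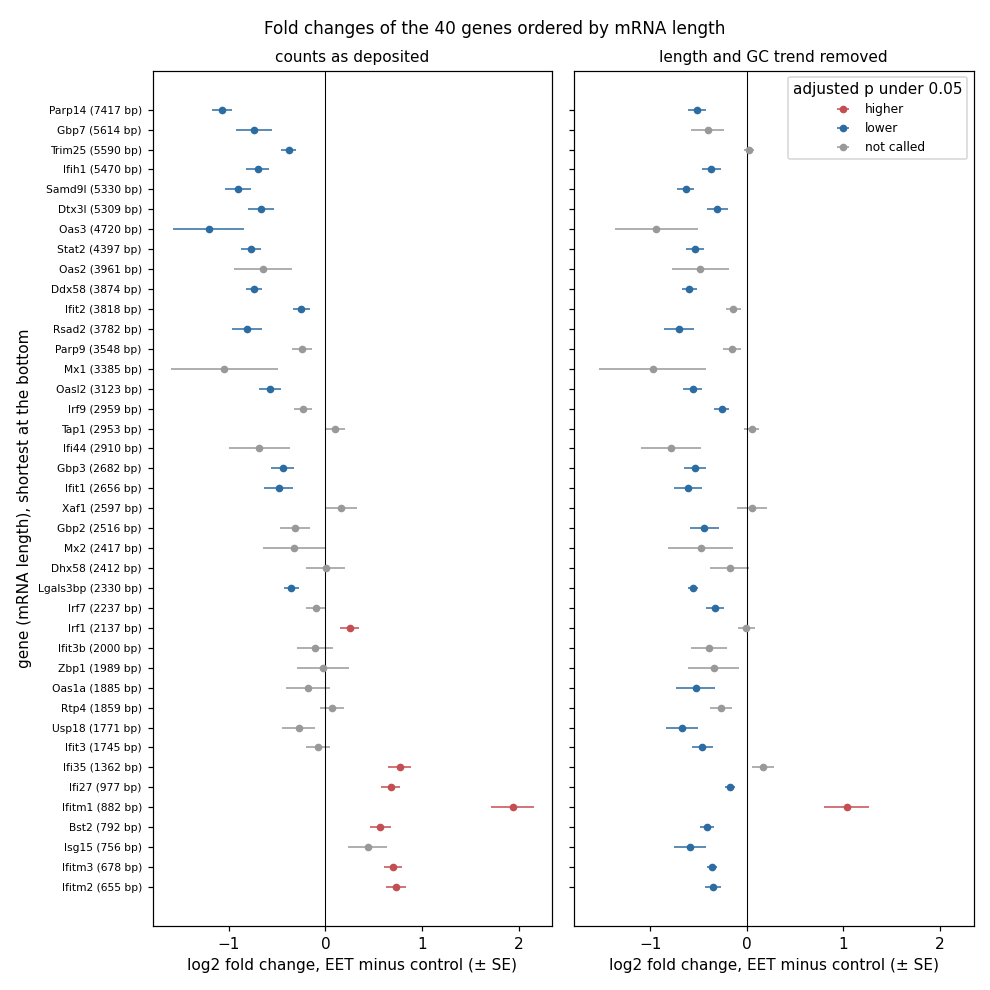
Log2 fold change of EET against control (horizontal axis) with its standard error for each of the 40 genes, ordered by mRNA length, as counted and length-adjusted. As counted, 15 genes were lower and 7 higher; with the trend removed, 22 were lower and 1, Ifitm1, was higher.

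Promoter windows of RefSeq (GRCm38.p6), from 250 bases before to 50 after the annotated start, were at hand for 30 of the 40 genes. The ISRE core GAAANNGAAA, searched on both strands, was in the windows of 16 of these 30 genes (53.3%), against 1079 of 27025 genes with a window (3.99%). The core of the gamma-activated site, TTCNNNGAA, an element of the response to interferon gamma that reads the same on both strands, was in 7 of the 30 (23.3%) against 9.55% of all genes. Among genes with a window, the ISRE core was in 6 of the 10 that were lower in both ways, in 13 of the 19 that were lower length-adjusted and in 3 of the 10 that were not called length-adjusted. A match only describes the letters and does not show a site in use. Because the 40 genes were taken by name as interferon-stimulated, a high ISRE share follows from that choice. Whether the shares differ between the groups of calls was not tested. The windows of the 6 genes that were lower in both ways and held the core are printed in the order of their p-values. Those of Isg15 and Ifitm1 were added after their values were seen, as the window with the most matches and as that of the only gene higher in both ways. Each reads 5′ to 3′ on the gene's strand, in lower case with ISRE matches in capitals (as GAAANNGAAA or, for a match on the other strand, as its reverse complement).
Ddx58, chr4:40239776-40240075, minus strand: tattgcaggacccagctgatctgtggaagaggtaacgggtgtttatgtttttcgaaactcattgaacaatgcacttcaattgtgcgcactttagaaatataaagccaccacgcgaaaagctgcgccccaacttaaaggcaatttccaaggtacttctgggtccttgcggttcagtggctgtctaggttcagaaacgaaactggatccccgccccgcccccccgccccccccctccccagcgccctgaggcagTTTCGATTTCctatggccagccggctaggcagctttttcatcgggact
Stat2, chr10:128270248-128270547, plus strand: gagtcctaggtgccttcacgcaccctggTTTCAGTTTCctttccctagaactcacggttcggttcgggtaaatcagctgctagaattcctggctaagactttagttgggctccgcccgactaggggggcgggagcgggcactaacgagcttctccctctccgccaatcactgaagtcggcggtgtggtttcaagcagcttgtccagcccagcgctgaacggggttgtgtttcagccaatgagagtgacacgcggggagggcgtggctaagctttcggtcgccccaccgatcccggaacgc
Ifih1, chr2:62646206-62646505, minus strand: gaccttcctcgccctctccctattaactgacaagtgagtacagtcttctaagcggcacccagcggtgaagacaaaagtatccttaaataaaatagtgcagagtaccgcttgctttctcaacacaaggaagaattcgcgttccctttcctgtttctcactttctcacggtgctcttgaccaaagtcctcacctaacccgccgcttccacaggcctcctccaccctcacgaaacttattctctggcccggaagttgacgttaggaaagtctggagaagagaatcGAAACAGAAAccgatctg
Rsad2, chr12:26456403-26456702, minus strand: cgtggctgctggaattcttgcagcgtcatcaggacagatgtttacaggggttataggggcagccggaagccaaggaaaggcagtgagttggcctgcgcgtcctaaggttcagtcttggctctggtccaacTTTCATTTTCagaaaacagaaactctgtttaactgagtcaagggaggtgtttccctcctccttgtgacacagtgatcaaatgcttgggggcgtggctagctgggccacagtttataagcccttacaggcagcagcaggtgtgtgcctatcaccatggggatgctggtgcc
Gbp3, chr3:142559794-142560093, plus strand: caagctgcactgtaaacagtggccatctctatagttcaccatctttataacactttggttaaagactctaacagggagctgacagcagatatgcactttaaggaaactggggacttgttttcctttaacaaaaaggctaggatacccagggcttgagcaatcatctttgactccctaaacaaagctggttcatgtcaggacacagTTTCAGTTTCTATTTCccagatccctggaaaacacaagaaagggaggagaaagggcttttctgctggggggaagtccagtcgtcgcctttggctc
Ifit1, chr19:34640639-34640938, plus strand: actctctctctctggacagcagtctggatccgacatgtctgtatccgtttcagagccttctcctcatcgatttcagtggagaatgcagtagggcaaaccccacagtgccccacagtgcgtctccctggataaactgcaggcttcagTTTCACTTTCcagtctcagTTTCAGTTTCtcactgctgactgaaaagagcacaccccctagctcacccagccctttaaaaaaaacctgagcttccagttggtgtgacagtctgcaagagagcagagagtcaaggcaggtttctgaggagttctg
Isg15, chr4:156200769-156201068, minus strand: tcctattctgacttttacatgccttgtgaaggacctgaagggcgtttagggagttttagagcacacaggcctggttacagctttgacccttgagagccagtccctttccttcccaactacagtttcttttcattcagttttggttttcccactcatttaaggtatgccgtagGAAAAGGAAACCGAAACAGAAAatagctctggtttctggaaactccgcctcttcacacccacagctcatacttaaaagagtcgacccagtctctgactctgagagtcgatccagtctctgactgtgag
Ifitm1, chr7:140967826-140968125, plus strand: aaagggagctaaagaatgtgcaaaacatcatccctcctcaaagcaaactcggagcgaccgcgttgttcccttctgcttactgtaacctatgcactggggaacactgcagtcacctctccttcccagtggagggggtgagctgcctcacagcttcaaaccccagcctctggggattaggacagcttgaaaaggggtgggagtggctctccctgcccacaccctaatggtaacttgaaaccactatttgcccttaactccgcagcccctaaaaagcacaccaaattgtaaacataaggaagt

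Counted from the annotated start as base 0, the match of Ddx58 lay at 2 to 11 and that of Ifih1 at 32 to 41, both after the start. Those of Stat2 (−222 to −213) and Rsad2 (−120 to −111) lay upstream. Gbp3 had 2 overlapping matches (from −45 and −39) and Ifit1 2 separate ones (from −104 and −85). Isg15 had 3 overlapping matches in a row, from −78 to −57, and the Ifitm1 window had none. That window begins at base 140967826, inside the Ifitm1 gene of GENCODE, which starts at base 140967221. Sequence upstream of the GENCODE start was not searched. Of the 4 genes that rose as counted and were lower length-adjusted, Ifitm2, Ifitm3 and Bst2 each held at least 1 match. For Ifi27 none was found. Isg15, Dhx58, Irf1, Trim25 and Rtp4 also lay on the other side of 0 length-adjusted. Of these only Isg15 had an ISRE match, and a gene without a window could show none.

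**Figure D3:**
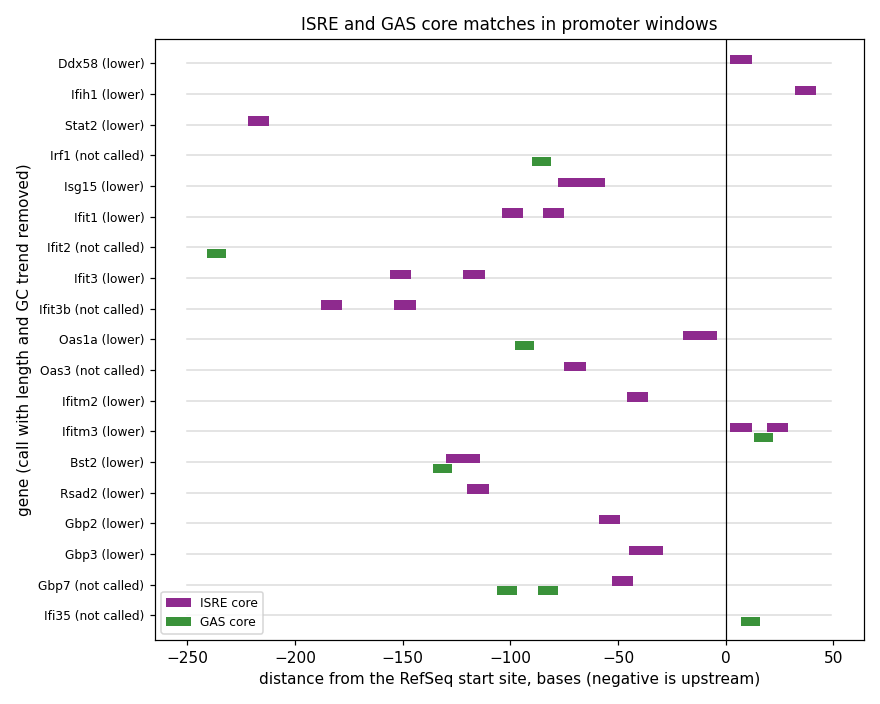
Positions of ISRE and gamma-activated-site cores in the promoter windows of the members, in bases from the annotated start (horizontal axis), 1 line per gene. Isg15 has 3 overlapping ISRE cores, and genes without a match in their window, such as Ifitm1, are not drawn.

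Both RNA helicases that signal fell. Ddx58, which encodes RIG-I, the sensor of short RNA with a 5′ triphosphate, was 38.0, 35.4 and 37.4 CPM in the controls and 21.9, 21.2 and 23.1 CPM with EET. All EET libraries lay below all controls, with means going from 36.9 ± 1.36 to 22.1 ± 0.963 CPM (SD, n = 3 each), and the log2 fold change was −0.74 ± 0.09 (adjusted p = 8.57e-06). Length-adjusted it was −0.59 ± 0.07 (adjusted p = 5.29e-06). Ifih1 encodes MDA5, the sensor of long double-stranded RNA, and was 18.3, 20.6 and 19.7 CPM in the controls and 11.0, 10.8 and 14.2 CPM with EET. The groups did not overlap. Its log2 fold change was −0.70 ± 0.12 (adjusted p = 0.000216), and −0.37 ± 0.10 (adjusted p = 0.00587) length-adjusted. The call of both genes held without each library in turn, as counted and length-adjusted.

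The other 2 sensors did not pass the test in either way. Dhx58 encodes LGP2, a helicase without the signalling domain that modulates RIG-I and MDA5, and was 2.84, 3.72 and 3.53 CPM in the controls and 3.88, 2.78 and 3.42 CPM with EET. These values overlapped, at 0.0012 ± 0.20 (adjusted p = 0.997) and −0.18 ± 0.20 (adjusted p = 0.543) length-adjusted. Exons of Dhx58 overlap the antisense transcript Dhx58os, and the sources used here do not say whether strand was used in counting, so reads of the 2 cannot be told apart. The same holds for Irf7, Irf1, Usp18, Gbp2, Ifi35 and Tap1, each of which overlaps a gene on the other strand. Zbp1, a sensor of Z-form nucleic acid, was 1.76, 2.17 and 2.83 CPM in the controls and 2.82, 1.63 and 2.14 CPM with EET. It overlapped as well, at −0.03 ± 0.27 (adjusted p = 0.947) and −0.34 ± 0.27 (adjusted p = 0.351) length-adjusted.

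Stat2 was the transcription factor with the largest difference of the 4. This subunit of ISGF3 was at 19.4, 22.5 and 22.4 CPM in the controls and 12.3, 13.1 and 12.3 CPM with EET. The EET libraries lay within 12.3 to 13.1 CPM, below all controls, and the log2 fold change was −0.77 ± 0.10 (adjusted p = 2.66e-05), or −0.53 ± 0.09 (adjusted p = 0.000171) length-adjusted. Irf9, the DNA-binding subunit of ISGF3, was at 32.5, 30.2 and 30.6 CPM in the controls and 29.5, 25.1 and 25.0 CPM with EET. All EET libraries were below the controls but by a small margin. Irf9 missed the threshold as counted, at −0.23 ± 0.09 (adjusted p = 0.0553), and was lower length-adjusted, at −0.26 ± 0.08 (adjusted p = 0.0152). As counted, Irf9 passed with DESeq2 (adjusted p = 0.043) and without EET 1 (0.0177), and length-adjusted its call was lost without EET 2 or without EET 3.

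Irf7, which drives the later wave of type I interferon, was at 17.4, 17.9 and 16.0 CPM in the controls and 15.4, 17.5 and 15.0 CPM with EET. The groups overlapped, with −0.10 ± 0.10 (adjusted p = 0.466) as counted. Length-adjusted it was lower, at −0.33 ± 0.09 (adjusted p = 0.0103), a call lost without control 2 (adjusted p = 0.0662) or without EET 1. Irf1, a factor induced by interferon gamma, went the other way as counted, at 17.7, 18.2 and 16.2 CPM in the controls and 19.9, 22.2 and 19.9 CPM with EET. It rose by 0.25 ± 0.10 (adjusted p = 0.0461), a call lost with DESeq2 (adjusted p = 0.0673) and in 5 of the 6 fits that left out 1 library. Length-adjusted its difference was −0.0046 ± 0.09 (adjusted p = 0.976).

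**Figure D4:**
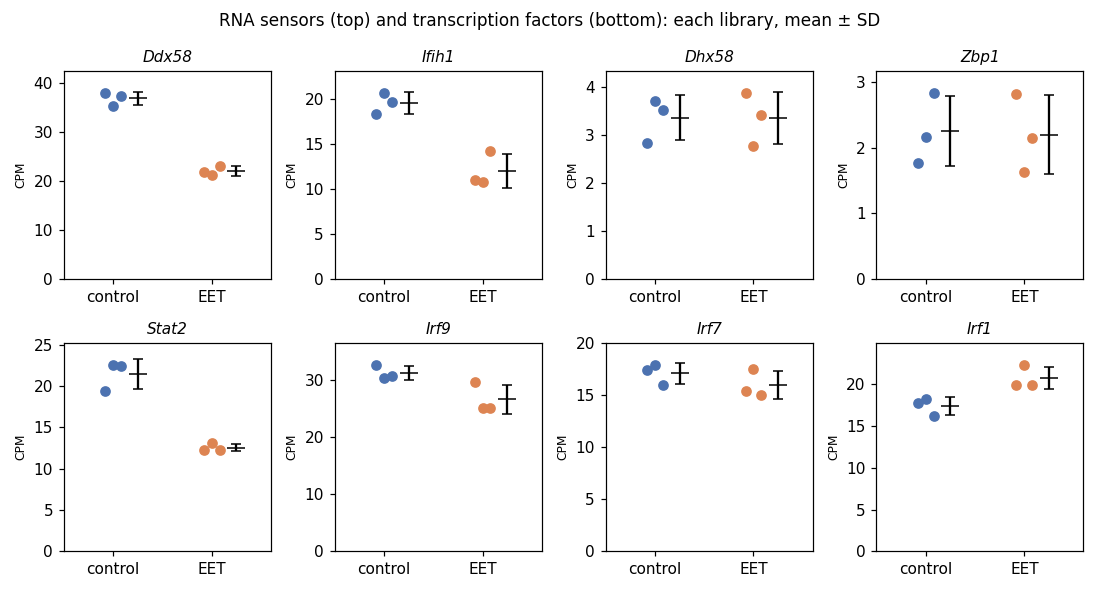
CPM per library (points; vertical axes) with mean and SD (bars) of the 4 sensors and 4 transcription factors in 3 control and 3 EET libraries. Groups do not overlap for Ddx58, Ifih1, Stat2 and Irf9 (EET lower) or Irf1 (EET higher), and overlap for Dhx58, Zbp1 and Irf7.

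Genes of the ISG15 system depended on the way of counting. ISG15 is a ubiquitin-like protein that is attached to other proteins. Its gene, with an mRNA of 756 bases, was at 4.70, 5.30 and 4.20 CPM in the controls and 8.38, 6.01 and 4.82 CPM with EET. EET 1 was the highest library and the groups overlapped, with 0.44 ± 0.20 (adjusted p = 0.0842) as counted and −0.59 ± 0.17 (adjusted p = 0.00939) length-adjusted. Without EET 3 Isg15 was called higher as counted (adjusted p = 0.0113), and the length-adjusted call was lost without control 2 or without EET 2. Usp18, which removes ISG15 and restrains signalling at the interferon receptor, was at 5.70, 6.13 and 7.66 CPM in the controls and 6.30, 4.86 and 4.91 CPM with EET. The groups overlapped, at −0.27 ± 0.17 (adjusted p = 0.208) as counted, and it was lower length-adjusted, at −0.67 ± 0.17 (adjusted p = 0.00379). Trim25, a ubiquitin and ISG15 ligase that acts on RIG-I, has an mRNA of 5590 bases and was at 101, 106 and 102 CPM in the controls and 71.9, 79.3 and 86.6 CPM with EET. It fell, at −0.38 ± 0.08 (adjusted p = 0.000834) as counted, with no overlap, and was at 0.02 ± 0.05 (adjusted p = 0.767) length-adjusted.

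No IFIT gene rose, and Ifit1 was lower in both ways. IFIT1 binds viral RNA that lacks the host's cap methylation, and the IFIT genes lie together on chromosome 19. Ifit1 was at 8.25, 8.41 and 10.4 CPM in the controls and 6.76, 6.97 and 5.59 CPM with EET. Its groups did not overlap, with −0.48 ± 0.15 (adjusted p = 0.0147) as counted, a call lost without control 3 (adjusted p = 0.0941), and −0.61 ± 0.14 (adjusted p = 0.0025) length-adjusted. Ifit2 was at 34.2, 34.6 and 33.5 CPM in the controls and 29.9, 26.7 and 29.7 CPM with EET, with no overlap. It fell, at −0.25 ± 0.08 (adjusted p = 0.0256) as counted, which did not hold without control 2, control 3 or EET 2, and was at −0.14 ± 0.08 (adjusted p = 0.167) length-adjusted. Ifit3 was at 11.8, 11.2 and 11.8 CPM in the controls and 12.3, 11.2 and 9.54 CPM with EET, overlapping, with −0.08 ± 0.12 (adjusted p = 0.647) as counted. Length-adjusted it was lower, at −0.46 ± 0.11 (adjusted p = 0.0027). Ifit3b, at −0.11 as counted and −0.39 length-adjusted, was not called. Ifit3 and Ifit3b share sequence (31.65% and 27.41% of their 100-base stretches), so the split of reads between them is uncertain.

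The OAS genes encode synthetases of 2′-5′ oligoadenylate, which activates RNase L, and lie on chromosome 5. Oasl2, an OAS-like protein, was at 18.6, 18 and 16.7 CPM in the controls and 13.5, 11.4 and 10.9 CPM with EET. The groups did not overlap, and it was lower in both ways, at −0.57 ± 0.11 (adjusted p = 0.000599) and −0.56 ± 0.10 (adjusted p = 0.000268) length-adjusted. Oas3 was at 4.23, 4.69 and 3.62 CPM in the controls and 3.25, 0.896 and 1.24 CPM with EET. EET 1 lay close to the lowest control while EET 2 and EET 3 were far below, and Oas3 fell, at −1.21 ± 0.37 (adjusted p = 0.016) as counted. Without EET 1 the value was −1.96 (adjusted p = 5.05e-05), and the call was lost without EET 2 or EET 3 (highest adjusted p, 0.0802). Length-adjusted it was −0.94 ± 0.43 (adjusted p = 0.136) with all libraries and −1.71 (6.04e-05) without EET 1. Oas1a was at 5.70, 5.22 and 4.23 CPM in the controls and 6.16, 4.16 and 3.08 CPM with EET, again with EET 1 highest. It was not called as counted, at −0.18 ± 0.23 (adjusted p = 0.559), and just passed length-adjusted, at −0.53 ± 0.20 (adjusted p = 0.0478), a call lost in 5 of 6 fits without 1 library. Of its 100-base stretches 40.87% are also in Oas1g. Oas2 was not called in either way with all libraries (−0.64 and −0.48), and was called lower as counted without EET 3 (adjusted p = 0.0271).

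All 5 genes of factors that act at membranes and vesicles were called, in both directions. The IFITM proteins block fusion of viruses with endosomes, and their genes form a cluster on chromosome 7. Ifitm3 had the highest level per length of the 40 genes, at 277 ± 31.6 CPM per kb in the controls and 449 ± 54.7 with EET. It was at 206, 192 and 164 CPM in the controls and 334, 317 and 263 CPM with EET. All EET libraries were above all controls, and it rose by 0.70 ± 0.10 (adjusted p = 4.45e-05). Relative to mRNAs of like length (its own is 678 bases) it was lower, at −0.36 ± 0.05 (adjusted p = 1.48e-05). Ifitm2, with an mRNA of 655 bases, was at 36.1, 33.0 and 28.1 CPM in the controls and 60.9, 51.4 and 49.4 CPM with EET. It rose by 0.73 ± 0.10 (adjusted p = 4.77e-05) and was lower length-adjusted, at −0.35 ± 0.08 (adjusted p = 0.00261). It shares 34.89% of its 100-base stretches with other genes, so its counts are uncertain. Bst2, or tetherin, which holds budding virus at the cell surface, was at 26.2, 23.9 and 20.7 CPM in the controls and 39.0, 36.1 and 30.1 CPM with EET, without overlap. It rose by 0.57 ± 0.11 (adjusted p = 0.000657) and was −0.41 ± 0.08 (adjusted p = 0.000264) length-adjusted.

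Ifitm1 was the one gene higher in both ways, although at a low level, with 1.56 ± 0.361 CPM per kb in the controls and 6.0 ± 0.653 with EET. It was at 1.05, 1.69 and 1.40 CPM in the controls and 4.65, 5.76 and 5.47 CPM with EET. The groups did not overlap, the means differed 3.83-fold in the fit, and the log2 fold change was 1.94 ± 0.22 (adjusted p = 7.79e-06), or 1.04 ± 0.23 (adjusted p = 0.00176) length-adjusted. In human cells IFITM1 sits mostly at the cell surface and IFITM2 and IFITM3 mostly in endosomes. Rsad2, which encodes viperin, an enzyme of the endoplasmic reticulum and lipid droplets that makes a chain-terminating nucleotide, was at 8.30, 6.62 and 7.03 CPM in the controls and 4.08, 4.42 and 4.04 CPM with EET. It fell in both ways with no overlap, at −0.81 ± 0.16 (adjusted p = 0.000559) and −0.70 ± 0.16 (adjusted p = 0.00168) length-adjusted.

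Of the 5 GTPase genes 2 were lower in each way, and Gbp3 in both. Guanylate-binding proteins attack the membranes of vacuoles that hold pathogens, and the GBP genes here lie on chromosome 3. Gbp3 was at 11.1, 10.9 and 10.7 CPM in the controls and 8.15, 7.74 and 8.23 CPM with EET. The groups did not overlap, with −0.44 ± 0.12 (adjusted p = 0.00601) as counted and −0.54 ± 0.11 (adjusted p = 0.00109) length-adjusted. Gbp7 was at 5.94, 5.44 and 6.93 CPM in the controls and 2.85, 3.78 and 4.35 CPM with EET, also without overlap. It fell, at −0.74 ± 0.19 (adjusted p = 0.00443) as counted, and was at −0.41 ± 0.17 (adjusted p = 0.0763) length-adjusted. It shares 10.19% of its 100-base stretches with other genes. Gbp2 was at 7.86, 7.23 and 6.65 CPM in the controls and 6.36, 6.27 and 4.85 CPM with EET, just without overlap, and was called only length-adjusted, at −0.44 ± 0.15 (adjusted p = 0.0266) against −0.32 ± 0.16 (adjusted p = 0.111) as counted. That call was lost without control 1, control 2 or EET 3.

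Mx1 and Mx2 encode dynamin-like GTPases that bind viral nucleocapsids, and neither was called with all libraries. Mx1 had the lowest level per length of the 40 genes and was at 0.604, 0.536 and 0.795 CPM in the controls and 0.570, 0.0960 and 0.249 CPM with EET. EET 1 lay within the controls, the other EET libraries below them, and the value was −1.05 ± 0.56 (adjusted p = 0.139). Without EET 1 it was −1.87 (adjusted p = 0.0279) as counted and −1.83 (0.0372) length-adjusted. Mx2 was at −0.32 as counted and −0.48 length-adjusted.

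Parp14 had the smallest adjusted p of the members as counted. The PARP9-DTX3L complex joins ADP-ribosylation with ubiquitin ligation, PARP14 is a mono-ADP-ribosyltransferase, and their 3 genes are neighbours on chromosome 16. Parp14 was at 34.3, 41.4 and 38.0 CPM in the controls and 19.8, 16.9 and 17.4 CPM with EET. It fell 2.10-fold, at −1.07 ± 0.10 (adjusted p = 2.05e-06), and was still lower length-adjusted (its mRNA has 7417 bases), at −0.51 ± 0.09 (adjusted p = 0.000222). Dtx3l was at 14.7, 18.3 and 20.8 CPM in the controls and 11.4, 10.3 and 12.2 CPM with EET, with no overlap. It fell, at −0.66 ± 0.13 (adjusted p = 0.000676), and was −0.31 ± 0.11 (adjusted p = 0.0335) length-adjusted, which was lost without control 2, control 3, EET 2 or EET 3. Parp9 had −0.25 as counted and −0.15 length-adjusted and was not called with all libraries, although its EET libraries lay below the controls. Without EET 3 it was called lower as counted (adjusted p = 0.0289). Parp9 and Dtx3l overlap in opposite directions, so their reads cannot be told apart without strand.

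Among the other 8 genes, Samd9l and Lgals3bp were lower in both ways. Samd9l, which restrains translation, was at 30.1, 37.4 and 37.8 CPM in the controls and 15.0, 18.6 and 22.6 CPM with EET. The groups did not overlap, and it fell, at −0.91 ± 0.14 (adjusted p = 7.83e-05), or −0.63 ± 0.09 (adjusted p = 2.68e-05) length-adjusted. Lgals3bp, a secreted galectin-binding glycoprotein, was at 80.1, 73.5 and 71.1 CPM in the controls and 61.7, 56.7 and 57.5 CPM with EET. It fell, at −0.35 ± 0.08 (adjusted p = 0.00129), and its length-adjusted value, −0.56 ± 0.05 (adjusted p = 3.67e-07), had the smallest adjusted p of the 40 genes. Ifi27, which encodes a protein of mitochondria and the nuclear envelope, was second in level per length, at 65.6 ± 6.12 CPM per kb in the controls and 105 ± 13.8 with EET. It was at 70.8, 62.2 and 59.2 CPM in the controls and 115, 105 and 88.0 CPM with EET, without overlap, and rose by 0.68 ± 0.10 (adjusted p = 5.45e-05). Length-adjusted it was lower, at −0.18 ± 0.05 (adjusted p = 0.0116), a call lost without EET 2. Ifi35, whose product pairs with NMI, was at 8.12, 7.96 and 7.31 CPM in the controls and 12.9, 14.6 and 12.4 CPM with EET. It rose by 0.77 ± 0.12 (adjusted p = 0.000112) and was at 0.17 ± 0.11 (adjusted p = 0.275) length-adjusted.

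Tap1, Ifi44, Rtp4 and Xaf1 were not called in either way. Tap1, a subunit of the peptide transporter of antigen presentation, was at 38.9, 36.3 and 30.1 CPM in the controls and 39.3, 37.8 and 35.8 CPM with EET, with 0.10 as counted and 0.05 length-adjusted. Ifi44 had −0.68 and −0.78, Rtp4 0.07 and −0.27, and Xaf1 0.16 and 0.06. Rtp4 shares 11.19% of its 100-base stretches with another gene model. Ifi44 was called lower as counted without EET 3 (adjusted p = 0.00576).

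Levels per length spread widely. After Ifitm3 and Ifi27 came Ifitm2 (49.5 ± 6.09 CPM per kb in the controls and 82.3 ± 9.34 with EET), and then Bst2 and Lgals3bp. In the controls Bst2 (29.8 ± 3.47 CPM per kb) and Lgals3bp (32.1 ± 2.00) did not differ beyond their spread, and with EET Bst2 was above (44.2 ± 5.75 against 25.2 ± 1.15). These levels still hold the length trend of the libraries, and the mRNAs have 792 and 2330 bases. Length-adjusted, both genes were lower with EET (−0.41 and −0.56). Mx2, Oas2 and Mx1 were lowest in the mean of both groups, while with EET Oas3 (0.381 CPM per kb) was below Mx2 (0.416). Summed over the 40 genes the CPM ran from 897 to 968 in the controls and from 928 to 1053 with EET. Without Ifitm3 and Ifi27, left out after their values were seen, the sums were 673 to 702 CPM and 575 to 605 CPM.

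The calls as counted followed mRNA length, which ran from 655 to 7417 bases over the 40 genes. Of the 7 genes with an mRNA under 1500 bases 6 rose and Isg15 was not called, where 71.6% of all genes of that class rose and 1% fell. Of the 15 with at least 3000 bases 12 fell and Oas2, Mx1 and Parp9 were not called, where 7.07% of all such genes rose and 45.1% fell. The 18 genes between these lengths had 1 higher and 3 lower call, against 40.2% and 4.09%. Length-adjusted, 5 of the 7, 9 of the 18 and 8 of the 15 were lower, where 13.8%, 14.6% and 19.4% of all genes in these classes were. Spearman's rho between length and log2 fold change was −0.85 over the 40 genes and −0.68 over 13811 genes, a description across genes of the same 6 libraries, and −0.22 over the 40 genes length-adjusted.

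**Figure D5:**
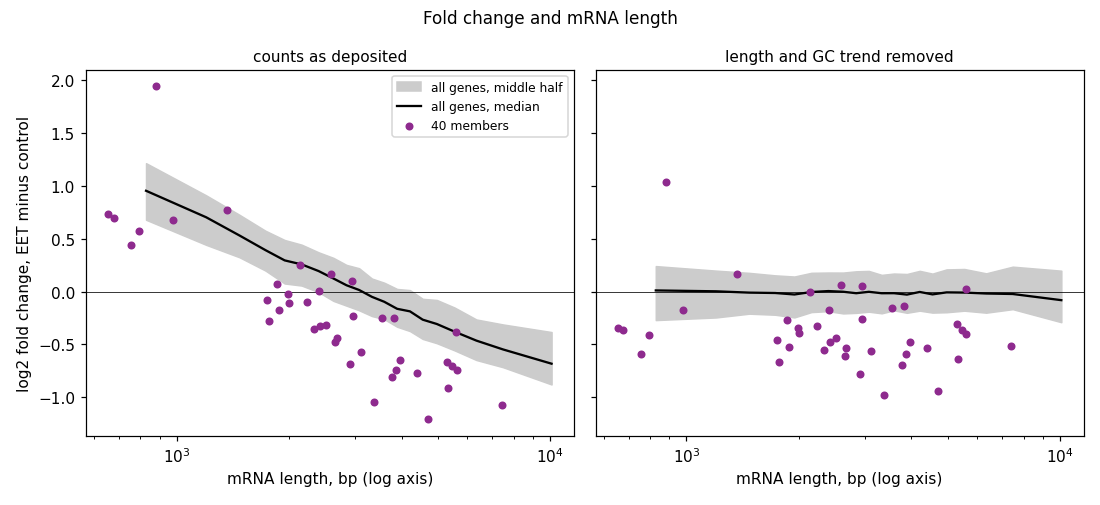
Log2 fold change of EET against control (vertical axis) against mRNA length (horizontal axis, log scale) for the 40 genes (points) over the median (line) and interquartile range (grey) of all genes in bins of length, as counted and with the trend removed. As counted, short members lie above 0 and long ones below it (Spearman's rho −0.85), and with the trend removed 35 of 40 lie below 0.

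Upstream of these genes, the list of interferons, their receptors and JAK-STAT genes did not move one way. Of 26 listed genes 15 could be tested, of which 3 rose (20%) and 4 fell (26.7%). Over all genes tested 24.6% rose and 23.3% fell. Length-adjusted 5 were higher and 1 lower, where 17.1% of all genes were called each way. As counted and length-adjusted, Ptpn2 (0.49 and 0.34), a phosphatase of JAK1, Socs1 (0.74 and 0.66), an inhibitor of JAK kinases, and Ifngr2 (0.29 and 0.42), a receptor chain for interferon gamma, were higher, and the kinase gene Jak1 (−0.63 and −0.32) was lower. Stat3 fell as counted (−0.32) and was higher length-adjusted (0.13). The kinase gene Jak2 (−0.42 and −0.11) and the type I receptor chain Ifnar1 (−0.22 and −0.06) fell as counted and were not called length-adjusted. Interferon itself was hardly seen: 7 interferon genes had no count in any library, and Ifnb1 had 2 counts in control 1, 2 in EET 2 and 0 elsewhere. A count of 0 allows up to 3 counts, or 0.0788 to 0.0960 CPM in these libraries, for counting error only.

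In the list of other nucleic acid sensing genes, 11 of 28 tested fell (39.3%) and 3 rose (10.7%). Length-adjusted 10 of 27 were lower and 1 higher. Over all genes tested 23.3% fell and 24.6% rose, and length-adjusted 17.1% were called each way. The 4 lower genes with the smallest p were Eif2ak2, which encodes the RNA-activated kinase PKR (−1.11, and −0.91 length-adjusted), the ligase gene Trim56 (−0.93 and −0.30), the RNA editor Adar (−0.81 and −0.39) and the adaptor Traf3 (−0.57 and −0.03, the latter not called). Pqbp1 (0.52 and −0.08), Irf3 (0.47 and 0.17) and Myd88 (0.32 and 0.0037) rose as counted and were not called length-adjusted. Of 56 further interferon-stimulated genes 18 fell (32.1%) and 5 rose (8.93%), with 24 lower and 0 higher length-adjusted. Lower with the smallest p were Rnf213 (−0.93 and −0.27), Helz2 (−0.87 and −0.29), Znfx1 (−0.72 and −0.20) and Slfn5 (−1.07 and −0.66), and higher as counted, though not called length-adjusted, were Nmi (0.70 and 0.08), Ly6e (0.28 and 0.07), Ube2l6 (0.43 and −0.05) and Plscr1 (0.30 and 0.09). Genes of antigen processing had 9 higher (45%) and 3 lower (15%) of 20 as counted, and 3 higher and 5 lower length-adjusted. Their median mRNA length was 1777 bases, and of all genes with 1500 to under 3000 bases 40.2% rose and 4.09% fell as counted. The immunoproteasome gene Psmb10 (1.13 and 0.49) was higher in both ways. The proteasome activator genes Psme2 (0.95 and 0.09) and Psme1 (0.72 and −0.04) and the class I gene H2-T22 (0.52 and 0.12) rose as counted and were not called length-adjusted. The peptidase gene Erap1 (−0.48 and −0.14), Nlrc5 (−0.75 and −0.15), the transactivator of MHC class I genes, and the chaperone gene Canx (−0.23 and −0.05) fell as counted and were not called length-adjusted.

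Markers of other cells moved as well, and their part in the results above was not tested. For all genes tested the shares were 24.6% higher and 23.3% lower as counted, and 17.1% each way length-adjusted. Endothelial markers summed to 242 to 253 CPM in the controls and 141 to 157 CPM with EET, and 4 of 6 fell (Pecam1, Cdh5, Tek and Kdr). Length-adjusted 5 of the 6 were lower. Markers of fibro-adipogenic cells summed to 265 to 272 and 225 to 238 CPM, and 2 of 5 fell (Pdgfra and Col15a1). Length-adjusted 3 of the 5 were lower, Col15a1 (−1.06) among them, and Pdgfra was at −0.05 (not called). Of 11 leukocyte markers 10 could be tested, and as counted 2 of them, Ptprc and Csf1r, fell and 8 were not called. Of those 8, Adgre1 (−1.14) and Lyz2 (−0.22) had negative values and the others positive ones, among them Tyrobp (0.45) and Fcgr3 (0.33). Length-adjusted 4 of the 10 were lower and Itgam (0.42) was higher, and Csf1r was not called (−0.31, adjusted p = 0.0553). The macrophage marker Adgre1 was at 24.8, 27.0 and 28.3 CPM in the controls and 23.2, 5.47 and 7.52 CPM with EET, not called, with EET 1 close to the controls. Markers of plasmacytoid dendritic cells, strong producers of interferon, summed to 180 to 184 and 143 to 147 CPM. Most of that sum was Tcf4, at 149, 155 and 155 CPM in the controls and 98.3, 104 and 113 CPM with EET. Tcf4 has an mRNA of 8577 bases and was at −0.54 as counted (lower) and −0.02 length-adjusted (not called). That list also holds Bst2, one of the 40 genes, and its defining marker, Siglech, was below 0.3 CPM in all 6 libraries. Without EET 1, 17 of the 40 genes were called lower and 6 higher as counted, and 23 lower and 1 higher length-adjusted.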

How the data were processed

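Poly(A) RNA was sequenced as paired reads from 6 libraries with a dUTP-marked second strand, per the labels' protocols. The authors deposited counts, as whole numbers for each gene symbol in each library, not normalized. FastQC, cutadapt, DESeq2 and GRCm38 are named in the submitters' processing notes. Not given in the sources used here are aligner, counter, strand setting and annotation release. Of 55494 rows, 25226 had no count. Of counts from 11 to 50, 61.3 to 62.1% were even in the controls and 65.0 to 65.6% with EET, so the totals may overstate the precision, and counts divided by 2 were tried.

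The main test was edgeR 4.0.16 in R 4.3.3 (TMM scaling after filterByExpr, then glmQLFit with robust estimation and glmQLFTest) without a block, with Benjamini-Hochberg adjustment over all genes tested. Gene positions and mRNA lengths (longest protein-coding transcript) were taken from GENCODE M21 (GRCm38), which matched 53292 rows by symbol. For the length and GC trend, each library's deviation in log2 CPM (prior count 2) from the 6-library mean was smoothed by robust loess with a span of 0.3 and entered as an offset for the 13811 tested genes with a protein-coding transcript. Alternatives tried were DESeq2 1.42.0, voom in limma 3.58.1, RLE and library-total scaling, no filter on low counts, a stricter filter (more than 5 CPM in 3 libraries or more), non-robust estimation, a replicate block, length without GC, and leaving out libraries. All pairs of libraries differed by more than sampling noise (chi-square per gene at least 5.93).

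The genes, lists and tests were chosen with earlier results of these data known. All 40 genes are named. Values per library are given for the sensors, the transcription factors and each gene called in either way, and from each pathway list the called genes with the smallest p are named, at most 4 higher and 4 lower. Of the list genes, 1 was matched by an older symbol, and the values of 1 are not reported here.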

Additional observations from a re-analysis of the deposited data

How the results depend on the processing

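Of the 40 genes, 7 were higher and 15 lower as counted. Under RLE scaling, library totals, no filter, the stricter filter, DESeq2, limma-voom, non-robust estimation and counts divided by 2, 6 or 7 were higher and 15 to 18 lower. Counts divided by 2 left 39 of the 40 genes to test, and the stricter filter left fewer. Ifitm1, at 1.05, 1.69 and 1.40 CPM in the controls and 4.65 CPM in EET 1, was not tested under the stricter filter. Replicate numbers did not pair the libraries (correlations of same-numbered deviations 0.00287, −0.0737 and 0.0242), and the replicate block gave 7 higher and 17 lower. With the length and GC trend removed, with length alone, with the block and the trend removed and without control 1 and EET 3 with the trend removed, 1 was higher, and 22, 22, 23 and 19 were lower. Without 1 library, with or without the trend, 1 to 8 were higher and 13 to 23 lower.

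Across the same 4 trend settings, the interferon, receptor and JAK-STAT genes went from 3 higher and 4 lower to 5, 4, 5 and 6 higher and 1, 2, 1 and 1 lower. Sensing genes went from 3 to 1 higher in each, other interferon-stimulated genes from 5 to 0, 0, 0 and 2 higher (3 with library totals), and antigen processing genes from 9 to 3, 3, 3 and 4 higher and from 3 to 5 lower in each. Without 1 library, with or without the trend, the ranges were 2 to 5 higher and 1 to 4 lower (JAK-STAT), 1 to 3 and 7 to 12 (sensing), 0 to 6 and 16 to 26 (other interferon-stimulated genes) and 2 to 12 and 2 to 6 (antigen processing).

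As log2 fold changes, Dhx58, close to 0 as counted, turned to −0.011 under RLE scaling and DESeq2, −0.068 with library totals (Rtp4 −0.00048), −0.00075 without the filter and −0.0022 with the replicate block. Without control 1 and EET 3, Dhx58 was at −0.13, Ifit3 at 0.017 and Oas1a at 0.11. With the trend removed, and with the block as well, 9 genes changed sign: Dhx58 (−0.18 and −0.18), Irf1 (−0.0046 and −0.0046), Isg15 (−0.59 and −0.60), Trim25 (0.024 and 0.024), Ifitm2 (−0.35 and −0.35), Ifitm3 (−0.36 and −0.36), Bst2 (−0.41 and −0.41), Ifi27 (−0.18 and −0.18) and Rtp4 (−0.27 and −0.27). Length alone gave Dhx58 −0.19, Irf1 −0.015, Isg15 −0.61, Ifitm2 −0.36, Ifitm3 −0.39, Bst2 −0.44, Ifi27 −0.19 and Rtp4 −0.29. Without control 1 and EET 3 and with the trend removed they were Dhx58 −0.34, Irf1 −0.016, Isg15 −0.56, Trim25 0.026, Ifitm2 −0.36, Ifitm3 −0.33, Bst2 −0.38, Ifi27 −0.14 and Rtp4 −0.23. Without 1 library, over fits with and without the trend, values ran from −0.31 to 0.12 for Dhx58, −0.53 to 0.16 for Zbp1, −0.066 to 0.29 for Irf1, −0.74 to 0.61 for Isg15 and −0.45 to 0.065 for Trim25. They ran from −0.53 to 0.018 for Ifit3, −0.49 to 0.0036 for Ifit3b, −0.80 to 0.033 for Oas1a, −0.40 to 0.81 for Ifitm2, −0.41 to 0.80 for Ifitm3 and −0.46 to 0.67 for Bst2. For Ifi27 the range was −0.20 to 0.78, for Rtp4 −0.34 to 0.16, for Xaf1 −0.10 to 0.26 and for Tap1 −0.033 to 0.18. Apart from the trend, whose removal changed the direction of calls, the cause of these changes was not tested. Counts are few for Mx1, Mx2, Oas2 and Zbp1, at under 3 CPM, and for Ifi44, at means of 2.81 CPM in the controls and 1.76 CPM with EET. For these genes a change of moderate size could not be told from the spread.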
